A study of Mus musculus with 22 samples.

Results

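Cultured dorsal root ganglion (DRG) neurons were compared with whole DRG in mice labelled Postn knock out (KO), using the 6 libraries of 22 that the labels give to these groups. The ganglion group held 3 libraries of T10-L5 DRG from KO mice after 5 days of vehicle, the comparison arm of an imiquimod (IMQ) psoriasis model. The culture group held 3 libraries of KO DRG neurons kept for 72 h in medium without recombinant POSTN. Members were taken by label: the control columns of the KO culture table and the KO vehicle columns of the ganglion table, joined on the Ensembl gene identifier over all 55487 genes. All 6 libraries carry the Postn knock-out label, and what was deleted, the strain, age and sex of the mice, the culture medium and any step to deplete other cells are not stated in the sources used here. The labels do not say whether replicates came from separate mice or cultures, so p-values measure the spread between these samples, which may be technical. The 6 libraries held 17 to 22.3 M (mega) counts each, and values are read counts per M (CPM) on library sizes scaled by TMM, a method that aligns the bulk of genes between libraries.

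DRG hold the cell bodies of sensory neurons together with the satellite glia that wrap them, myelinating Schwann cells, fibroblasts, vessels and macrophages. Dissociation cuts the axons of the neurons, and cut sensory neurons are known to switch on a regeneration program while genes of transmission and of subtype identity go down. POSTN (periostin) is a secreted matrix protein of fibroblasts and Schwann lineage cells that binds integrins. The study looked at POSTN in the psoriasis model and in DRG culture, and the present comparison shows which cells and programs the culture holds in the absence of added POSTN.

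Tissue and deposited table coincided, since ganglia and cultures stand in separate tables, so a difference of preparation and a difference of counting cannot be told apart. For that reason a gene was called only at an adjusted p below 0.05 in edgeR's quasi-likelihood test and a difference of 4-fold or more (2 on the log2 scale, always culture minus ganglion). Of 17184 genes tested, 11274 passed the test at any size, while 1392 were called higher in culture (8.1% of those tested) and 1693 lower (9.85%). The 3 libraries of each group did not overlap for any of the 1392 higher and for 1689 of the 1693 lower calls. The calls were picked on these same libraries, so the lack of overlap follows largely from the choice and adds no support. The shares of 8.1% and 9.85% are the background against which each count of a gene group stands below.

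The shares of lower and of higher calls depended on overlap with a gene on the other strand. Among 11921 genes with no exon base shared with an opposite-strand exon the median log2 difference was 0.07, and 9.07% were called lower. Among 440 genes with 30 to 60% of exon bases shared the median was -1.06, among 100 genes with 60 to 90% it was -3.21, and among 39 genes above 90% it was -7.46 with 87.2% called lower. Another 919 genes shared under 10% of exon bases but lay 50% or more inside the span of an opposite-strand gene. Of these 17.4% were called higher and 13.6% lower. Of the 1392 higher calls, 238 lay 50% or more inside such a span. Ilk, an integrin-linked kinase gene of most cells, had 146 to 220.5 CPM in all 10 ganglion libraries of the series and 0 to 0.369 CPM in all 12 culture libraries. Gnas, the gene of a widely expressed G protein subunit, had 1594 to 2139 CPM in the ganglia and 15.2 to 21.3 CPM in the cultures. Both tissues were prepared with a kit that marks strand, per the labels' protocols, and the strand setting of the counting is not stated in the sources used here; its part in these values was not tested. Genes with under 10% of exon bases shared with another gene and under 50% of their span inside an opposite-strand gene are called clear of overlap below; 13841 of the genes tested were, with 1058 called higher and 1134 lower. Apart from Xist, a gene named below is clear of overlap unless its overlap is given, and the separation was chosen after these values had been seen.

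**Figure D1:**
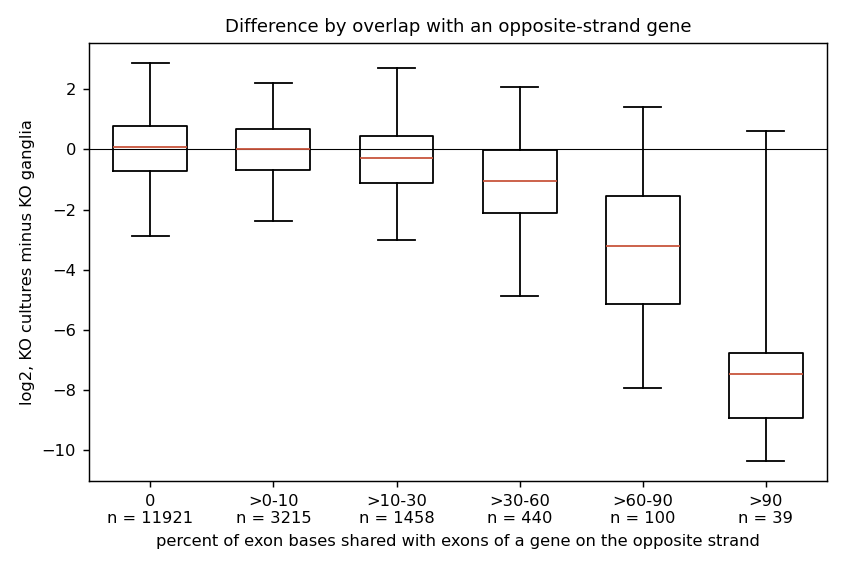
Log2 difference of KO cultures minus KO ganglia (y axis) for genes grouped by the percent of exon bases they share with exons of an opposite-strand gene (x axis, with the number of genes). Boxes span the quartiles with the median as a line, whiskers end at a fixed low and high percentile, and genes beyond them are not drawn. The median lies at 0.07 without overlap and at -7.46 above 90% overlap.

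Some libraries stood apart from the others of their group. KO ganglion 1 had more blood cell and ribosomal protein RNA than ganglia 2 and 3. Culture 2 had the highest levels of several hypoxia genes, and culture 3 the highest levels of Postn, collagens and dividing-cell genes. The values stand beside the results they touch. Levels within the ganglia also followed transcript length. The slope of log2 deviation from the group mean on log2 exon length was -0.172, 0.171 and 0.001 in ganglia 1 to 3. In cultures 1 to 3 it was -0.0123, 0.0172 and -0.0048. Short genes thus stood relatively high in ganglion 1 and low in ganglion 2, and the part of this in the ribosomal protein values was not tested. Ddx3y, a Y-linked gene, had no count in the 3 KO ganglia and 17.8, 24.3 and 41.2 CPM in the KO cultures, and Xist, which silences an X chromosome in females, had 210.0, 228 and 238 CPM in the 3 ganglia and 990.3, 1087 and 709 CPM in the 3 cultures. By these genes RNA of male mice was present in the cultures and not in the ganglia, and the part of sex in the results was not tested.

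Postn itself was measured first. It had 4.16, 3.64 and 5.4 CPM in the 3 ganglia and 103, 100.3 and 382 CPM in the 3 cultures, a log2 difference of 5.47 ± 0.58 (SE, adjusted p = 3.46e-05). The libraries did not overlap, and culture 3 stood far above the other two; without culture 3 the difference was 4.53. WT (wild-type) vehicle ganglia, in a fit over both genotypes, had 21.6, 27.8 and 22.5 CPM of Postn and WT control cultures 923, 869.9 and 672 CPM. Postn reads were thus fewer under the knock-out label in both preparations, but they were not at 0, and each KO culture held more Postn CPM than any WT vehicle ganglion. Whether the counted reads lie in the deleted part of the gene is not stated in the sources used here.

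Marker genes of the cell types a ganglion can hold were summed to describe what each preparation held. All 7 neuron markers were present, with summed levels of 11763, 9644 and 10832 CPM in the ganglia and 4831, 4624 and 4353 CPM in the cultures. Markers of other cells were also present in the cultures, several of them at lower sums than in the ganglia. Immature or repair Schwann cell markers summed to 1280.3 to 1491 CPM in the ganglia and 866 to 972 CPM in the cultures, fibroblast markers to 1236 to 1447 and 572 to 1150.1 CPM (highest in culture 3), satellite glia markers to 632 to 732 and 360.5 to 397 CPM and pericyte markers to 284 to 350.0 and 159.5 to 181 CPM. A sum follows its most abundant members and need not hold for the others. Of the 6 fibroblast markers only 1, Dcn, was called lower and none higher. Of the 4 immature or repair Schwann cell markers 2, Sox2 and Sox10, were called higher and none lower. Macrophage markers summed to 54.6 to 68.1 CPM in the ganglia and 56 to 63.9 CPM in the cultures, where Cd68 alone gave 43.1 to 55.8 CPM. Myelinating Schwann cell markers summed to 2900.5 to 3357 CPM in the ganglia and 283 to 431 CPM in the cultures, and endothelial markers to 45.5 to 64.3 and 142 to 146 CPM. The culture label names neurons, and by these markers the culture libraries hold neuronal RNA together with that of glia, fibroblasts, endothelial cells and macrophages. In bulk libraries fewer cells of a type and less RNA per cell cannot be told apart, here or below.

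**Figure D2:**
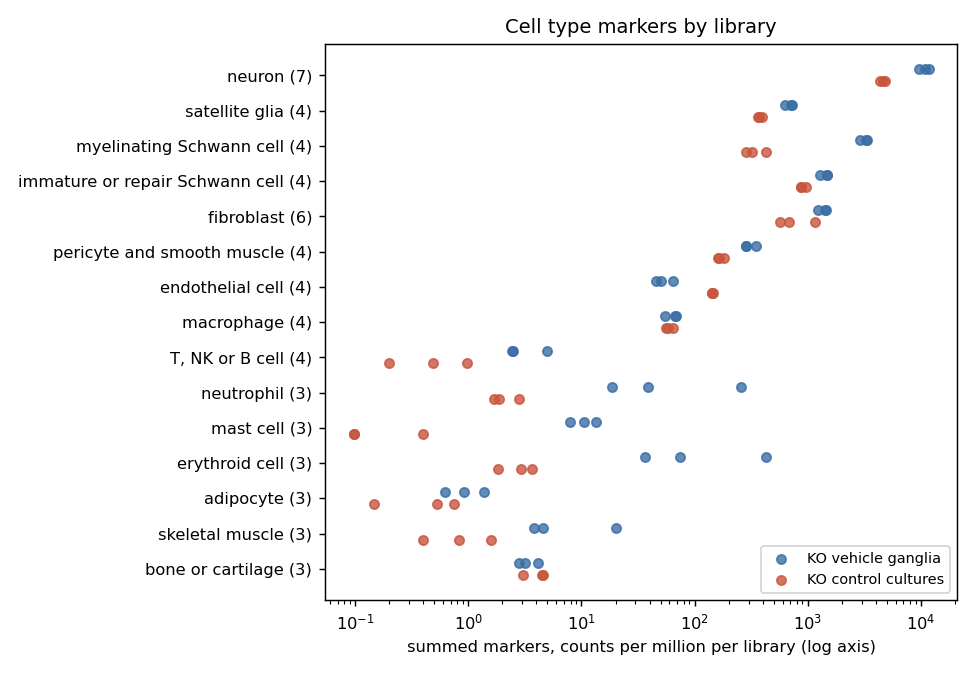
Summed CPM of the marker genes of each cell type (number of genes in brackets) in each library, on a log axis; blue points are the 3 KO ganglia and red points the 3 KO cultures. Neuron, satellite glia, both Schwann cell, fibroblast and pericyte sums lie lower in every culture than in any ganglion, macrophage sums overlap, endothelial sums lie higher, and neutrophil, mast and erythroid cell sums are 3.7 CPM or less in the cultures. Sums follow their most abundant genes. Of 6 fibroblast markers only Dcn was called lower, and 2 of 4 immature or repair Schwann cell markers were called higher.

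Genes shared by all neurons mostly stood lower in culture, by an amount that differed among them. Of 24 pan-neuronal genes tested 20 passed the test as lower and none as higher, and 6 of the 20 reached 4-fold, with a median log2 difference of -1.19 against -0.005 over all genes tested; among the 20 clear of overlap 3 were called lower. Nefh, the heavy neurofilament subunit of large myelinated neurons, had 2136, 2134 and 2305 CPM in the 3 ganglia and 316, 324 and 299 CPM in the 3 cultures, a difference of -2.81 ± 0.12 (SE, adjusted p = 7.07e-08). Tubb3, the neuronal beta-tubulin, had 1826, 1828 and 1974 CPM in the 3 ganglia and 1170.0, 1017 and 1026 CPM in the 3 cultures, a difference of -0.81 ± 0.12 (SE, adjusted p = 0.000164), which passed the test but stayed under 4-fold. Snap25, a protein of vesicle fusion, differed by -1.82 ± 0.13, Stmn2, a growth cone protein that destabilizes microtubules, by -0.73 ± 0.13, and Pou4f1 (Brn3a), a transcription factor of sensory neurons, by -2.04 ± 0.12. Nefh was thus further below ganglion level than Tubb3 and Stmn2 were. Nefl, the light neurofilament, was at -2.84, but 33% of its exon bases overlap an opposite-strand gene. The Pou4f1 call was lost with library sizes left unscaled, at -1.80.

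To describe neuronal genes against the other neuronal genes, a second fit set each library's size to its summed counts of the pan-neuronal list, which came to 24273 to 27555 CPM in the ganglia and to 9184 to 10203 CPM in the cultures. On that scale, called the neuron scale here, 29.2% of all genes tested were called higher and 3.89% lower. Of 277 genes in the union of the neuronal lists, 38 were called higher, 35 lower and 204 neither. The balance of these calls depended on the reference: 32 were higher and 49 lower with the median ratio over the pan-neuronal list, and 31 and 50 with the summed synaptic list. The scale makes the summed pan-neuronal counts equal by its construction, so abundant members such as the neurofilament genes weigh most. The list was not centred at 0 on it: its median was 0.23, with Nefl at -1.42, Nefh at -1.39 and Stmn2 at 0.69.

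Itch and nonpeptidergic nociceptor genes had the lowest median of the 13 neuronal lists, and most were called lower. Of 22 tested, 14 were called lower and none higher, with a median of -3.30, and 10 of the 22 were still called lower on the neuron scale. Mrgprd, the receptor that marks the main class of nonpeptidergic nociceptors, had 64.3, 144 and 96.8 CPM in the 3 ganglia and 0.386, 0.499 and 0.242 CPM in the 3 cultures, a difference of -8.06 ± 0.40 (SE, adjusted p = 1.59e-07). Every ganglion lay far above every culture. Mrgpra3, a pruritogen receptor of itch neurons, had 22.7, 18.4 and 22.7 CPM in the ganglia and no count in the cultures, which with a floor of 3 counts over the group made it at least 432-fold lower. Il31ra, the receptor of the itch cytokine IL-31, had 22, 40.7 and 34.6 CPM in the 3 ganglia and 1.59, 2 and 1.4 CPM in the 3 cultures (log2 -4.28 ± 0.27). Gfra2, the neurturin co-receptor, was at -3.54.

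Members of the same list that many of these neurons share did not follow. P2rx3, an ATP-gated channel of nociceptors, had 132, 299 and 224 CPM in the 3 ganglia and 444, 447 and 466 CPM in the 3 cultures, a difference of 1.05 ± 0.24 (SE, adjusted p = 0.003) in the other direction. Ret, the signalling receptor of the GDNF family, differed by -0.95 ± 0.13, less than the pan-neuronal median. On the neuron scale P2rx3 stood at 2.45 and Ret at 0.46, while Mrgprd stood at -6.68 and Il31ra at -2.88.

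Genes of peptidergic nociceptors differed among themselves. Of 12 tested, 6 were called lower and 1, Gal, higher (median -1.77). Tac1, the precursor of substance P, had 412, 280.0 and 337 CPM in the 3 ganglia and 24.9, 23.3 and 28.8 CPM in the 3 cultures (-3.74 ± 0.17), and Trpv1, the capsaicin and heat channel, had 129.6, 150.1 and 155 CPM in the 3 ganglia and 20.9, 18.1 and 26 CPM in the 3 cultures (-2.74 ± 0.16). Calca, the precursor of CGRP, differed less, with 1949.7, 1290.4 and 1537 CPM in the 3 ganglia and 644, 636 and 680.1 CPM in the 3 cultures (-1.29 ± 0.15, adjusted p = 4.99e-05). Adcyap1, the precursor of PACAP, went the other way with 119.8, 138 and 128 CPM in the 3 ganglia and 312, 294 and 253 CPM in the 3 cultures (1.15 ± 0.12, adjusted p = 2.36e-05). Gal, the injury-linked peptide galanin, had 35.7, 17.3 and 26.3 CPM in the 3 ganglia and 109, 105 and 109 CPM in the 3 cultures, a difference of 2.03 ± 0.22 at the 4-fold limit (1.80 without ganglion 2). On the neuron scale Tac1 remained called lower at -2.31, whereas Calca was at 0.15 and Trpv1 at -1.32.

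Mechanoreceptor and proprioceptor genes had 8 of 20 called lower and none higher (median -1.76). Pvalb, a calcium buffer of proprioceptors, had 139, 72.3 and 91.2 CPM in the 3 ganglia and 8.68, 8.79 and 8.26 CPM in the 3 cultures (-3.55 ± 0.23). Kcns1, a modulatory potassium channel subunit, was at -3.81, Calb1, another calcium buffer, at -2.85, and Piezo2, the channel of touch and proprioception, at -2.20. On the neuron scale 2 members were called higher and 2 lower. The Piezo2 call was lost with library sizes left unscaled (-1.96).

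Among 18 transcription factor genes of sensory neurons tested, 8 were called lower and none higher (median -1.88). Isl2, a LIM factor, had 180.0, 153 and 163 CPM in the 3 ganglia and 32.3, 28.6 and 27.7 CPM in the 3 cultures (-2.48 ± 0.13), Bhlha9 was at -4.75, and Prdm12, a regulator of nociceptors, at -2.49. Runx1, which directs nonpeptidergic fate, differed by -0.94 ± 0.12, and Tlx3 by -1 ± 0.20, neither reaching 4-fold. On the neuron scale 2 of the 18 were called lower.

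Many ion channel genes were called lower in culture. Of 16 calcium channel genes 15 passed the test as lower, against 5678 of all 17184 genes tested, but few reached 4-fold. Called lower were 24 of 42 potassium channel genes (none higher, median -2.29), 7 of 13 voltage-gated sodium channel genes (-2.29), 6 of 11 TRP channel genes (-2.52), 12 of 23 ligand-gated and mechanosensitive channel genes (-2.20, with 1 higher, Piezo1, which overlaps another gene) and 2 of 16 calcium channel genes (-1.15), of which Cacna1i was clear of overlap and Cacnb4 was not. On the neuron scale fewer were called: 6 potassium channel genes lower and 1 higher, 1 sodium, 2 TRP and 1 calcium channel gene lower, 1 TRP channel gene higher, and 5 ligand-gated and mechanosensitive channel genes lower and 3 higher. Scn11a (Nav1.9), a sodium channel that sets nociceptor excitability, had 645, 905 and 797 CPM in the 3 ganglia and 28.3, 29.8 and 21.7 CPM in the 3 cultures, a difference of -4.88 ± 0.19 (SE, adjusted p = 5.53e-08). Scn10a (Nav1.8), the channel that carries most of the nociceptor action potential, had 772, 1104 and 955 CPM in the 3 ganglia and 195, 197 and 188 CPM in the 3 cultures (-2.29 ± 0.15). Scn1a (Nav1.1) was at -3.32. Scn11a stood further below the ganglion level than Scn10a in the same libraries, at -3.48 and -0.88 on the neuron scale.

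Trpa1, the irritant channel, had 97.5, 127 and 104 CPM in the 3 ganglia and 11.5, 10.5 and 10.9 CPM in the 3 cultures (-3.32 ± 0.14), and Trpc6, a receptor-operated channel, was at -5.09. Potassium channels with large differences included Kcnv1 (-5.02), Kcnd1 (-3.20) and Kcna2 (-2.82), the first a silent subunit and the others pore-forming subunits of A-type and delayed rectifier channels. Chrna6, a nicotinic receptor subunit, had 57.1, 73.7 and 70.5 CPM in the 3 ganglia and 0.241, 0.849 and 0.242 CPM in the 3 cultures (-7.23 ± 0.32), and Grik1, a kainate receptor subunit, had 404, 466 and 433 CPM in the 3 ganglia and 30.5, 27.7 and 22.5 CPM in the 3 cultures (-4.01 ± 0.15). Among calcium channels Cacna1i, a T-type channel, was at -3.95, whereas Cacna2d1, the gabapentin-binding subunit, differed by only -0.54 ± 0.13 (SE, adjusted p = 0.00374). Piezo1, a mechanosensitive channel of many cell types, was the 1 called higher in its list, at 2.77, but its span lies inside an opposite-strand gene.

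Synaptic vesicle and release genes had 4 of 30 called lower (Sv2b, Cplx2, Rph3a and Syt2) and none higher, with a median of -1.46. Scg3, a granule protein, had 1392, 1251 and 1250.5 CPM in the 3 ganglia and 343, 367 and 325 CPM in the 3 cultures (-1.91 ± 0.12), and Sv2b, a vesicle glycoprotein, was at -2.47. Stx1a, a plasma membrane SNARE, was higher at 0.99 ± 0.11, under 4-fold, and was the only member called higher on the neuron scale, at 2.41. Receptors of opioids, cannabinoids and other neuronal ligands had 11 of 24 called lower and none higher (median -1.78). Npy2r, an NPY receptor, had 41.4, 47.3 and 43.4 CPM in the 3 ganglia and 2.22, 1.15 and 2.46 CPM in the 3 cultures (-4.49 ± 0.24), and Oprk1, the kappa opioid receptor, was at -5.29. Cnr1, the CB1 cannabinoid receptor, differed by -0.68 ± 0.21 and stood at 0.72 on the neuron scale.

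**Figure D3:**
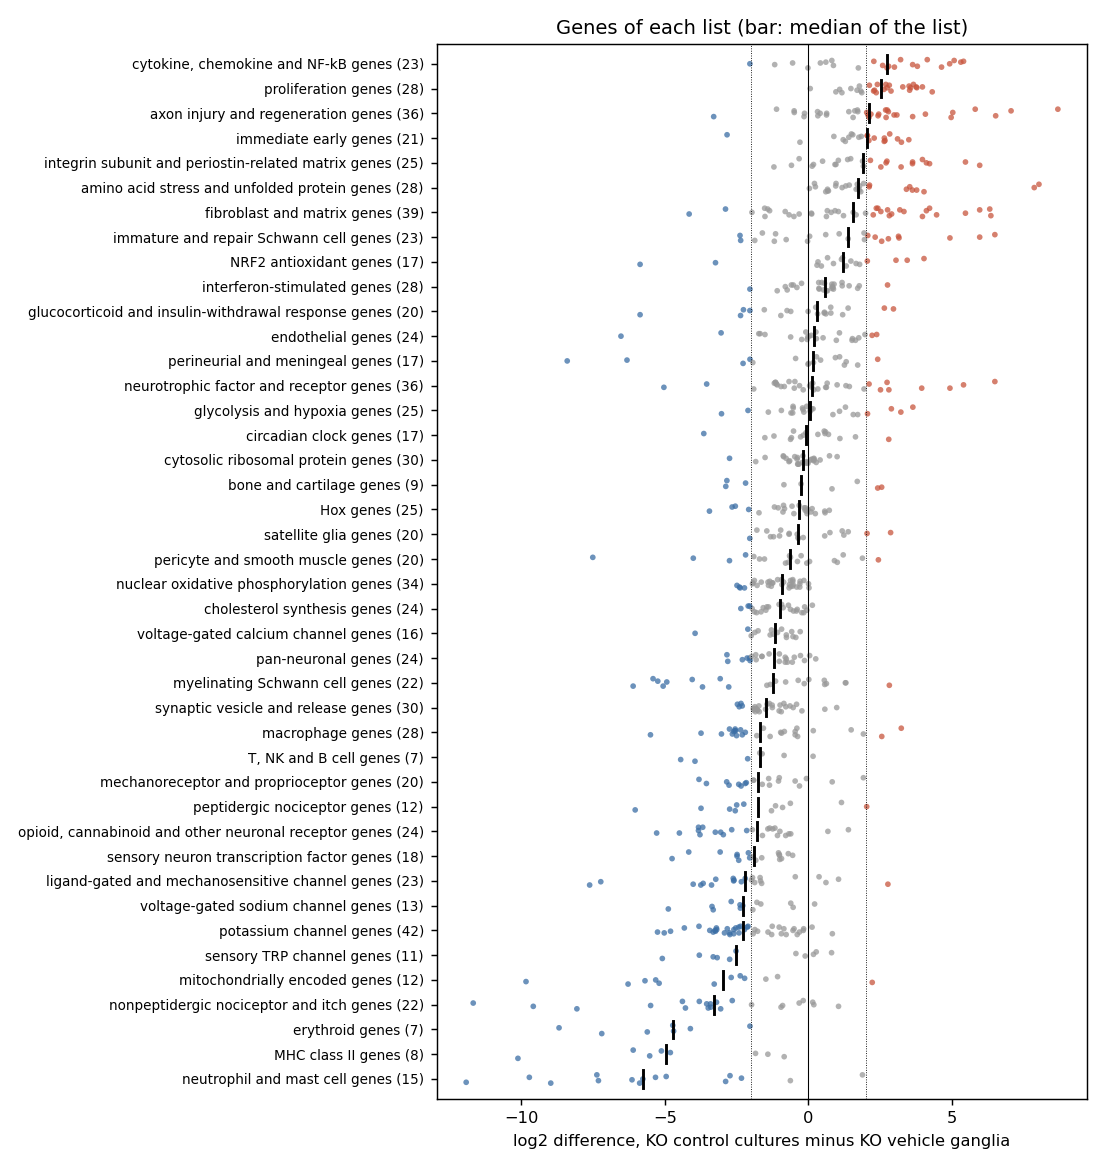
Log2 difference of KO cultures minus KO ganglia (x axis) for every tested gene of each list (y axis, number tested in brackets), with the list median as a black bar; red points were called higher, blue lower and grey neither. Cytokine, proliferation, injury and immediate early lists have medians of 2.05 to 2.74, and nonpeptidergic nociceptor, erythroid, MHC class II and neutrophil lists medians of -3.30 or lower.

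Axon injury and regeneration genes were the neuronal list with the most members called higher in culture. Of 36 tested, 20 were called higher and 1, Nmb, which overlaps another gene, lower, with a median of 2.09; among the 31 clear of overlap 17 were called higher and none lower, and on the neuron scale 27 of the 36 were called higher. Sprr1a, a growth-promoting protein induced by axotomy, had 0.649, 0.194 and 0.732 CPM in the 3 ganglia and 187, 231 and 217 CPM in the 3 cultures, a difference of 8.69 ± 0.28 (SE, adjusted p = 3.2e-08). Ecel1, a membrane metalloprotease gene of injured neurons, had 1.75, 0.97 and 0.844 CPM in the 3 ganglia and 159, 166 and 144 CPM in the 3 cultures (7.06 ± 0.23). Atf3, the stress transcription factor that marks axotomized sensory neurons, had 16.6, 12.6 and 17.1 CPM in the 3 ganglia and 491, 483 and 477 CPM in the 3 cultures, a difference of 4.97 ± 0.16 (SE, adjusted p = 3.2e-08). Gpr151, an orphan receptor, had 2.14, 1.31 and 1.97 CPM in the 3 ganglia and 62, 55 and 58.5 CPM in the 3 cultures (5.03 ± 0.19), and Cckbr, the cholecystokinin B receptor, was at 6.52. No culture overlapped a ganglion for these genes, and the low ganglion values of Sprr1a and Ecel1 varied more between libraries, in proportion, than the culture values did.

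Csf1, the cytokine by which injured sensory neurons act on microglia and macrophages, had 21.3, 19.6 and 22.7 CPM in the 3 ganglia and 261, 256 and 272 CPM in the 3 cultures (3.63 ± 0.12, adjusted p = 3.34e-08). Itga7, the laminin-binding integrin subunit of regrowing axons, had 185, 187 and 199 CPM in the 3 ganglia and 1204, 1230.3 and 1299.5 CPM in the 3 cultures (2.71 ± 0.12), and Sox11, a growth-linked transcription factor, was at 3.08. Jun, the partner of Atf3, had 99.6, 116 and 113 CPM in the 3 ganglia and 287, 274 and 313 CPM in the 3 cultures (1.41 ± 0.12), under 4-fold. Gap43, a growth cone protein often used as a regeneration marker, differed by -0.13 ± 0.14 with overlapping libraries and stood at 1.29 on the neuron scale. Nmb, a neuropeptide gene, was at -3.30, so the named injury genes ranged from 8.69 to -3.30.

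Among neurotrophic factors and receptors the genes called higher were mostly ligands. Of 36 tested, 8 were called higher and 2, Ntf3 and Gfra2, lower (median 0.14), and 7 of the 8 were ligands. The share of ligands among all 36 was not counted, so the 7 of 8 cannot be set against the make-up of the list. Gdnf, the ligand that acts through GFRA1 and RET, had 0.26, 0.194 and 0.281 CPM in the 3 ganglia and 16.5, 24.6 and 26.2 CPM in the 3 cultures (6.5 ± 0.31, adjusted p = 1.28e-07). Lif, a cytokine of injured nerve, had 0.39, 0.582 and 1.13 CPM in the 3 ganglia and 21.4, 46.9 and 22.2 CPM in the 3 cultures (5.40 ± 0.43), highest in culture 2, and Artn, the ligand of GFRA3, was at 4.93. Pdgfb, a growth factor chain, was at 2.51, and the HGF receptor Met was the called receptor at 3.95. Ntf3, the ligand of TrkC, had 1.56, 1.31 and 0.957 CPM in the 3 ganglia and 0.0482, 0 and 0.0483 CPM in the 3 cultures, near its detection limit in culture. The receptors Ntrk2 (-0.31), Gfra1 (-0.18) and Gfra3 (0.12) were not called.

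**Figure D4:**
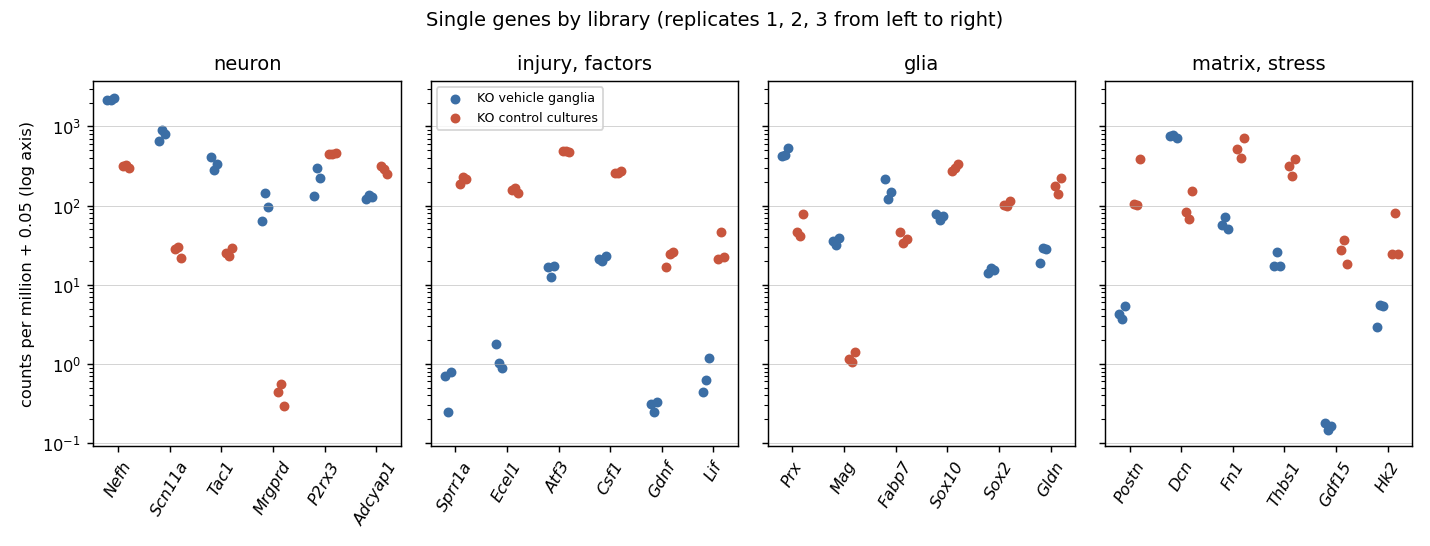
CPM per library, on a log axis with 0.05 added, for named genes in 4 panels; blue points are the 3 KO ganglia and red points the 3 KO cultures, replicates 1 to 3 from left to right. Groups do not overlap for any gene shown, P2rx3 and Adcyap1 are the 2 genes of the neuron panel that lie higher in culture, and culture 3 stands apart for Postn and culture 2 for Lif and Hk2.

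Stress genes were higher in culture in the amino acid and unfolded protein list, where 9 of 28 were called higher and none lower (median 1.72) and 24 of the 28 passed the test at any size, all of them higher. Gdf15, a secreted stress hormone, had 0.13, 0.097 and 0.113 CPM in the 3 ganglia and 27.2, 37.2 and 18.5 CPM in the 3 cultures (7.87 ± 0.41, adjusted p = 2.13e-07). Chac1, a glutathione-degrading enzyme induced by ATF4, had 6.56, 4.37 and 4.9 CPM in the 3 ganglia and 63, 64 and 55 CPM in the 3 cultures (3.53 ± 0.18), and Slc7a11, the cystine transporter, had 3.44, 2.86 and 2.87 CPM in the 3 ganglia and 39.1, 70.3 and 40 CPM in the 3 cultures (4.03 ± 0.26), highest in culture 2. Fgf21, another ATF4-induced hormone, had no count in the ganglia and 1.59, 2.35 and 1.16 CPM in the cultures, at least 30.3-fold higher against a floor of 3 counts. Atf4, the transcription factor of this response, had 150.3, 139 and 134 CPM in the 3 ganglia and 505, 512 and 484 CPM in the 3 cultures (1.83 ± 0.11), and Hspa5 (BiP), an ER chaperone, was at 1.42, both under 4-fold. Asns, asparagine synthetase and a textbook ATF4 target, had 256, 203 and 223 CPM in the 3 ganglia and 273, 264 and 252 CPM in the 3 cultures, which overlapped (log2 0.21 ± 0.12, adjusted p = 0.15).

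ATF4 binds a composite element, searched here as TGATGNAA on both strands of each gene's listed promoter windows, in the RefSeq promoter table of build GRCm38.p6. Of the genes tested 12344 had a promoter in the table, and 2.81% of these held a match. In the stress list 8 of 27 did, and so did 5 of the 9 called higher: Trib3, Chac1, Slc7a11, Fgf21 and Vldlr. Known ATF4 targets were put on that list, so its higher share follows in part from how it was made and tests nothing. An AP-1 element, searched as TGANTCA, was in 6.68% of all and in 4 of 27 promoters of the injury list, where 5 held the ATF4 element, and among its 14 called genes with a promoter only Sprr1a held it; matches to the motifs could overlap. A match is a description of letters, not of binding. The 80-base stretches shown are those of 2 called stress genes, of Atf3 and Sprr1a as injury genes, and of Asns, which holds a match but did not pass the test; capitals mark the matches, 5′ to 3′ on the gene's strand. They lie at chr2:119351013-119351092 (plus strand) for Chac1, chr3:50443627-50443706 (minus strand) for Slc7a11, chr1:191183400-191183479 (minus strand) for Atf3, chr6:7693210-7693289 (minus strand) for Asns and chr3:92485970-92486049 (minus strand) for Sprr1a.
Chac1: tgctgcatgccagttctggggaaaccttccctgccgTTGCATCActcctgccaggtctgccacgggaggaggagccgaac
Slc7a11: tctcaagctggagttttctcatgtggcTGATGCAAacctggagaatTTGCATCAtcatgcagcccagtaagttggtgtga
Atf3: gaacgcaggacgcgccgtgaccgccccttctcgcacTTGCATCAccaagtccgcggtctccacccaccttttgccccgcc
Asns: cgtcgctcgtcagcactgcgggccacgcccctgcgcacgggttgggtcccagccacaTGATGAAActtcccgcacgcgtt
Sprr1a: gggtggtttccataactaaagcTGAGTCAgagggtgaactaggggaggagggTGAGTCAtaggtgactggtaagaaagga
Slc7a11 holds 2 matches of the ATF4 element on opposite strands and Sprr1a 2 of the AP-1 element. Chac1, Slc7a11, Atf3 and Asns share the ATF4 letters, while their log2 differences were 3.53, 4.03, 4.97 and 0.21.

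NRF2 antioxidant genes had 4 of 17 called higher and 2 lower (median 1.19), and neither lower call, Mt2 and Gpx2, was clear of overlap. Hmox1, heme oxygenase, had 32.6, 28.1 and 31.1 CPM in the 3 ganglia and 194, 372 and 195 CPM in the 3 cultures (3.05 ± 0.25), highest in culture 2. Txnrd1, thioredoxin reductase, was at 2.05 and Osgin1 at 3.44. The antioxidant response element, searched as TGACNNNGC on both strands, was in 16.7% of all promoters in the table, in 7 of 14 of this list and in 1 of the 3 of its called-higher genes that had one. This list too was made of known NRF2 genes, so its share tests nothing. Hypoxia and glycolysis genes had 4 of 25 called higher (Hk2, Slc16a3, Vegfa and Ero1l) and 2 lower (Aldoc and Bnip3), with a median of 0.07 (-0.32 without culture 2 and -0.06 without ganglion 2), and culture 2 stood apart in the 4. Hk2, a hexokinase, had 2.86, 5.43 and 5.4 CPM in the 3 ganglia and 24.1, 80.3 and 24.7 CPM in the 3 cultures (3.22 ± 0.48), and the call was lost without ganglion 1 or ganglion 2 (adjusted p = 0.0574 and 0.0526) and was 2.41 without culture 2. Slc16a3, a lactate exporter, had 2.53, 1.55 and 2.25 CPM in the 3 ganglia and 12.9, 49.2 and 16.3 CPM in the 3 cultures (3.64 ± 0.51, and 2.80 without culture 2). Vegfa, the endothelial growth factor, had 51.3, 80 and 56.2 CPM in the 3 ganglia and 141, 492 and 149.6 CPM in the 3 cultures (2.06 ± 0.44, adjusted p = 0.002), but 1.22 without culture 2, and the call was lost without any 1 of the ganglia (adjusted p = 0.136 and 0.0924 without ganglion 1 and 2, and a log2 of 1.98 without ganglion 3); Aldoc, a glycolytic enzyme, was at -3.03.

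Among glial genes, several of myelin were called lower and several of immature Schwann cells higher. Of 22 genes of myelinating Schwann cells tested 9 were called lower and 1 higher (median -1.23). Mag, the myelin-associated glycoprotein, had 36.1, 31.4 and 38.8 CPM in the 3 ganglia and 1.11, 0.999 and 1.35 CPM in the 3 cultures, a difference of -4.93 ± 0.19 (SE, adjusted p = 5.53e-08). Ncmap was at -5.41, Fa2h, which makes hydroxylated myelin lipids, at -5.25, Drp2 at -4.05 and Prx at -3.07. Mbp and Pmp22, further myelin proteins, were at -1.14 and -1.33, under 4-fold. Gldn (gliomedin), which assembles the node of Ranvier, was the member called higher, with 18.9, 29.4 and 27.9 CPM in the 3 ganglia and 178, 139.8 and 222 CPM in the 3 cultures (2.82 ± 0.21).

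Of 23 genes of immature and repair Schwann cells 9 were called higher and 2, Scn7a and Aqp1, lower (median 1.39); among the 18 clear of overlap 7 were higher and 2 lower. Sox2, which holds Schwann cells in the immature state, had 14, 16.2 and 15.2 CPM in the 3 ganglia and 101, 99.7 and 113 CPM in the 3 cultures (2.79 ± 0.13). Sox10, the lineage factor of all Schwann cells and satellite glia, had 77.5, 65.3 and 74 CPM in the 3 ganglia and 275, 297 and 338 CPM in the 3 cultures (2.07 ± 0.13, and 1.99 without culture 3). Nes (nestin) was at 3.16 and Foxd3, a neural crest factor, at 3.14, while Ngfr (p75), a common repair cell marker, differed by -1.19 ± 0.16 in the other direction. Gdnf and Artn, given above, are also members of this list.

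Satellite glia genes had 2 of 20 called higher and 1 lower (median -0.37), shares near or below the background. Fabp7, the fatty acid binding protein that marks these cells, had 216, 121 and 149 CPM in the 3 ganglia and 46.9, 33.9 and 37.3 CPM in the 3 cultures (-2.04 ± 0.21), and without ganglion 1, its highest library, the difference was -1.79 and no longer called. Apoe, the lipid carrier, differed by -1.79 ± 0.22. Kcnj10 (Kir4.1), their potassium channel, had 48.9, 73.7 and 60.7 CPM in the 3 ganglia and 104, 95.4 and 109 CPM in the 3 cultures (0.75 ± 0.15), under 4-fold. Fbln2, a matrix protein, had 95.5, 102 and 88.4 CPM in the 3 ganglia and 689, 602 and 793 CPM in the 3 cultures (2.86 ± 0.14), and Gja1 (connexin 43) was at 2.04 but 1.42 without culture 2.

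Many matrix genes were called higher in culture, while Dcn and Pi16 were called lower. Of 39 tested, 17 were called higher and these 2 lower (median 1.56); among the 34 clear of overlap 14 were higher and 2 lower. Fn1 (fibronectin) had 56.7, 71 and 50.1 CPM in the 3 ganglia and 518, 398 and 704 CPM in the 3 cultures (3.19 ± 0.22), and Thbs1 (thrombospondin 1) had 17, 25.7 and 17.2 CPM in the 3 ganglia and 319.6, 235 and 389 CPM in the 3 cultures (3.97 ± 0.23). Tnc (tenascin C), a partner of periostin in matrix, was at 5.97, with 73% of its span inside an opposite-strand gene. Col5a2 was at 3.33 and Vim (vimentin), with 668, 497 and 621 CPM in the 3 ganglia and 2701, 2832 and 3023 CPM in the 3 cultures, at 2.26.

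Dcn (decorin), a proteoglycan of resting fibroblasts, had 757, 775 and 707 CPM in the 3 ganglia and 82.5, 68.2 and 152 CPM in the 3 cultures (-2.89 ± 0.27), highest among cultures in culture 3. Pi16, a marker of a fibroblast reservoir in many tissues, was at -4.15, and Lum (lumican) differed by -1.97 ± 0.30. Col1a1, the main fibrillar collagen, had 123, 109 and 87.7 CPM in the 3 ganglia and 59.5, 43.9 and 122 CPM in the 3 cultures, which overlapped (log2 -0.50 ± 0.31, adjusted p = 0.179). Culture 3 held the most Postn, Dcn and Col1a1 of the cultures, and the part of fibroblast number in these values was not tested.

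Integrin subunits and periostin-related matrix genes had 12 of 25 called higher and none lower (median 1.92), and 10 of 22 among those clear of overlap. Periostin binds integrins that contain the alpha v subunit. Itgav, the alpha v subunit, had 32, 48.9 and 38.5 CPM in the 3 ganglia and 362, 341 and 418 CPM in the 3 cultures, a difference of 3.23 ± 0.17 (SE, adjusted p = 2.67e-07). Itga5, the fibronectin receptor subunit, had 7.6, 6.84 and 6.64 CPM in the 3 ganglia and 85, 76.4 and 99.5 CPM in the 3 cultures (3.63 ± 0.15). Of the partners of alpha v, Itgb8 was at 2.74, Itgb3 at 1.89 and Itgb1, which pairs with many alpha subunits, at 1.47, Itgb3 and Itgb1 under 4-fold. Ccn1, a matrix ligand of alpha v integrins, was at 4.22. Which cells of the culture these reads came from cannot be read from bulk libraries.

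Endothelial genes had 2 of 24 called higher, Eng and Sox18, and 2 lower, Slco1a4 and Ly6c1 (median 0.18), shares near the background. Pecam1 (CD31) and Cdh5 (VE-cadherin), which mark all endothelium, were at 1.52 and 1.97, and Eng (endoglin) had 16, 14.4 and 13.1 CPM in the 3 ganglia and 81.5, 69 and 75.7 CPM in the 3 cultures (2.38 ± 0.13). Slco1a4, an organic anion transporter of barrier endothelium, had 30, 39.2 and 31.7 CPM in the 3 ganglia and 0.53, 0.35 and 0.193 CPM in the 3 cultures (-6.53 ± 0.28), and Ly6c1 was at -3.04. Pecam1, Cdh5 and Eng were thus above ganglion level while Slco1a4 and Ly6c1 were lower. Pericyte and smooth muscle genes had 1 of 20 called higher and 4 lower (Myh11, Higd1b, Cnn1 and Tagln, the last with overlap), with a median of -0.64. Rgs5, a pericyte marker, was at -1.90, Myh11, the smooth muscle myosin, at -2.75, and Cspg4 (NG2) at 2.44. Ptgds, prostaglandin D synthase of meningeal cells, had 776, 95.1 and 194 CPM in the 3 ganglia and 1.11, 1.45 and 0.58 CPM in the 3 cultures (-8.40 ± 1.00), and -7.12 without ganglion 1.

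Macrophage genes had 13 of 28 called lower and 2 higher (median -1.68); among the 24 clear of overlap 11 were lower and 2 higher. Cx3cr1, the fractalkine receptor of resident macrophages, had 6.49, 9.65 and 6.75 CPM in the 3 ganglia and 0.241, 0.0999 and 0.145 CPM in the 3 cultures (-5.50 ± 0.38). Cd163, a scavenger receptor, was at -3.74 and C1qa, a complement component, at -2.75. Cd68, a lysosomal protein, had 5.13, 4.61 and 5.68 CPM in the 3 ganglia and 46.4, 55.8 and 43.1 CPM in the 3 cultures (3.24 ± 0.16), and Gpnmb, a lysosome-linked glycoprotein, had 11.1, 16.8 and 15 CPM in the 3 ganglia and 74.1, 98.1 and 80.9 CPM in the 3 cultures (2.56 ± 0.18). Mmp12, macrophage elastase, had 0.13, 0 and 0.338 CPM in the 3 ganglia and 54, 60.7 and 41.7 CPM in the 3 cultures (8.39 ± 0.41). Cx3cr1 and Cd163 thus lay below and Cd68 and Gpnmb above the ganglion level.

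MHC class II genes, which present antigen, had 5 of 8 called lower and none higher (median -4.96). Cd74, the invariant chain, had 76.1, 33 and 70.3 CPM in the 3 ganglia and 0.386, 0.949 and 1.26 CPM in the 3 cultures (-6.10 ± 0.42). H2-Aa, a class II alpha chain, had 74.2, 31.6 and 78.8 CPM in the 3 ganglia and 0.0482, 0 and 0.0966 CPM in the 3 cultures, which amounts to 3 counts in the cultures. Neutrophil and mast cell genes had 13 of 15 called lower and none higher (median -5.77), erythroid genes 7 of 7 (-4.72), and genes of T, NK and B cells 3 of the 7 tested (Cd4, Cd79a and Igkc). Without ganglion 1 the neutrophil and mast cell median was -4.74, with 12 called lower and 1 higher, and the erythroid median -3.39, with 6 lower. S100a9, a neutrophil calcium-binding protein, had 147, 11.2 and 23.7 CPM in the 3 ganglia and 0.145, 0 and 0.0483 CPM in the 3 cultures (-9.72 ± 1.59), and -7.95 without ganglion 1, where blood cell RNA was highest. Hbb-bs, a beta globin, had 314, 26.8 and 56.9 CPM in the 3 ganglia and 1.16, 1.15 and 0.386 CPM in the 3 cultures (-7.20 ± 1.15), and -5.55 without ganglion 1. Tpsb2, a mast cell tryptase, had 4.35, 3.01 and 2.48 CPM in the ganglia and no count in the cultures, at least 65.9-fold lower. Neutrophil markers summed to 257 CPM in ganglion 1 and to 18.7 and 38.8 CPM in ganglia 2 and 3, and to 2.8 CPM or less in the cultures. Erythroid markers summed to 36.8 to 429 CPM in the ganglia and 1.84 to 3.66 CPM in the cultures, so the neutrophil and erythroid sums lay lower in every culture than in any ganglion.

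Proliferation genes had 19 of 28 called higher and none lower (median 2.52), and 17 of 24 among those clear of overlap. Top2a, a topoisomerase of dividing cells, had 6.69, 1.21 and 1.35 CPM in the 3 ganglia and 32.3, 35.4 and 72.2 CPM in the 3 cultures (3.97 ± 0.57), and 5.17 without ganglion 1, the ganglion that also held most erythroid and neutrophil RNA. Rrm2, a subunit of the enzyme that makes DNA precursors, had 3.77, 1.31 and 1.74 CPM in the 3 ganglia and 34.6, 35 and 62.9 CPM in the 3 cultures (4.31 ± 0.38). Mcm2, of the replication helicase, was at 2.70, Cdk1, the mitotic kinase, at 3.78 and Pcna, the replication clamp, at 1.48. Culture 3, with the most Postn and collagen, held the highest Top2a and Rrm2. Cdkn1a (p21), an inhibitor of the cell cycle, was also higher, with 72.3, 67.5 and 68.7 CPM in the 3 ganglia and 513, 573 and 541 CPM in the 3 cultures (2.96 ± 0.12).

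Immediate early genes, which respond first to a stimulus, had 11 of 21 called higher and 1 lower (median 2.05), the lower call being Jund, whose exons overlap an opposite-strand gene. Fos had 8.31, 7.76 and 8.67 CPM in the 3 ganglia and 64.4, 73.4 and 96 CPM in the 3 cultures (3.24 ± 0.17), Arc, a neuronal activity gene, was at 3.11 and Egr1 at 2.29. Npas4, which responds to calcium entry in neurons, had 0.844, 0.388 and 0.732 CPM in the 3 ganglia and 0.289, 1.15 and 0.145 CPM in the 3 cultures, with overlapping libraries. Cytokine, chemokine and NF-kB genes had 14 of 23 called higher and 1, Lcn2, lower (median 2.74); among the 20 clear of overlap 12 were higher and 1 lower. The Lcn2 call was lost without ganglion 1, ganglion 2, culture 1 or culture 3, with DESeq2 and with unscaled library sizes. It was also lost with a replicate block, with a length offset and with all 22 libraries in the fit. Cxcl1, a neutrophil attractant, was at 5.08, and Cxcl12, a stromal chemokine, at 2.28. Interferon-stimulated genes had 1 of 28 called in each direction (Cxcl10, which lies inside an opposite-strand gene, and Ifi27l2a), below the background, with a median of 0.60. At any size 15 of the 28 passed the test as higher and 6 as lower, against 5596 and 5678 of all 17184 genes tested. Isg15 was at 1.77 and Ifit1 at -1.09, both under 4-fold.

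Lists of nuclear metabolic genes had medians between -0.98 and 0.07, against -2.98 for mitochondrially encoded genes. Nuclear genes of oxidative phosphorylation had 4 of 34 called lower and none higher (median -0.93), 8 lower without ganglion 2, cholesterol synthesis genes had 3 of 24 called lower (-0.98) and cytosolic ribosomal protein genes 1 of 30 (-0.20). At any size 28 of the 34 and 18 of the 24 passed the test as lower and none as higher, against 5678 of all 17184 genes as lower. Of the 30 ribosomal protein genes 8 passed as lower and 2 as higher. Acat2, a thiolase of the cholesterol pathway, was at -2.04, and Uqcrh and Ndufb8, subunits of complexes III and I, were at -2.38 and -2.40. Short transcripts lay lower in general: the median was -0.49 over 675 genes clear of overlap with under 1000 exon bases and 0.14 over 2427 with more than 8000. The ribosomal protein median changed sign, to 0.05 with library sizes left unscaled and to 0.10 without ganglion 1, and their sum was 13723, 6649 and 9187 CPM in ganglia 1 to 3 and 8938 to 9189 CPM in the cultures. Mitochondrially encoded genes had 9 of 12 called lower and 1 higher (median -2.98), with sums of 31124 to 33780 CPM in the ganglia and 8751 to 10538 CPM in the cultures. mt-Nd1, a complex I subunit, was at -3.28, mt-Cytb, of complex III, at -2.69 and mt-Co1, of complex IV, at -1.07, while mt-Nd6, coded on the other strand, was at 2.22. These genes have near-identical copies in the nuclear genome and are read from both strands, so their values are uncertain.

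Lists of tissues outside the ganglion and of hormone responses completed the description. Perineurial and meningeal genes had 1 of 17 called higher (Sox9) and 4 lower (Ptgds, Lypd2, Msln and Cldn1), and glucocorticoid and insulin-withdrawal response genes 2 of 20 higher (Cdkn1a and Dusp1) and 4 lower (Mt2, with overlap, Fam107a, Hif3a and Lcn2). Skeletal muscle genes had 4 of 6 tested called lower (Acta1, with overlap, Myh4, Tnnt3 and Pvalb, which proprioceptors also express), adipocyte genes 1 of 4 in each direction (Ucp1 higher and Cfd lower), and bone and cartilage genes 2 of 9 higher and 3 lower. The whole muscle list summed to 97.4 to 147 CPM in the ganglia and 9.93 to 11.5 CPM in the cultures, most of it Pvalb (139, 72.3 and 91.2 CPM in the ganglia, 8.68, 8.79 and 8.26 CPM in the cultures). The few defining markers of adipocytes, skeletal muscle and bone summed to 0.145 to 20.2 CPM over the libraries, the highest being muscle in ganglion 2.

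The same comparison in wild type used 6 other libraries, so the 2 genotypes share no sample. In a fit over all 12 libraries, 1717 genes were called higher in KO culture and 1572 in WT culture, of which 1422 were in both (82.8% of the KO and 90.5% of the WT calls). Lower were 1876 and 1839, with 1568 in both (83.6% and 85.3%), and no gene was called in opposite directions. The ganglia of both genotypes stand in the same deposited table, so shared calls include any shift between ganglion and culture tables. Above 90% overlap with opposite-strand exons the median was -7.46 in KO and -7.38 in WT. The part of such a shift in the shared calls was not tested. List medians, from the 12-library fit in WT and the 6-library fit in KO, were 2.15 in WT against 2.09 in KO for injury genes, 2.33 against 2.52 for proliferation and -3.53 against -3.30 for nonpeptidergic nociceptor and itch genes. For Postn the WT difference was 5.10, and the difference between genotypes was 0.42 ± 0.60 (adjusted p = 0.949), not past the test.

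The difference between the genotypes (KO culture minus ganglion, less the same in WT) passed the test for 18 of 18162 genes at any size, and 3 of these reached 4-fold (0.0165%). The 3 were Slc15a2, Tmem267 and Gm8210, the last a gene model with overlap, and all 18 are given with their values among the results for a closer look. Leaving out 1 library left 5 to 25 genes past the test, among them 5 to 18 of these 18; Slc15a2 and Gm8210 were called each time, and Tmem267 was not called without WT culture 1, WT culture 2 or KO culture 1. In culture, genotype and deposited table coincide, so the 2 cannot be told apart in the culture values. The ganglia of both genotypes stand in the same deposited table. Slc15a2, a peptide transporter of glia, had 4.46, 3.21 and 3.06 CPM in WT ganglia, 13.9, 26.7 and 15.6 in KO ganglia, 10, 11.7 and 7.4 in WT cultures and 4.6, 4.97 and 4.32 in KO cultures, a difference of -3.46 ± 0.37 (adjusted p = 0.00176). It was lower than ganglia in KO cultures and higher than ganglia in WT cultures. Mitochondrially encoded genes made up 7 of the 18, all with a lower culture minus ganglion difference in KO than in WT; mt-Nd5, which lay below ganglia in KO cultures and not in WT cultures, had 3166, 3479 and 3371 CPM in WT ganglia, 2645, 3047 and 3275 in KO ganglia, 3877, 3518 and 3784 in WT cultures and 1198, 983 and 1127 in KO cultures. The median of their list was -1.76 in WT and -2.98 in KO. Nefh was also among the 18, with 2005, 1922 and 2049 CPM in WT ganglia, 2049.5, 2099 and 2261 in KO ganglia, 558, 547 and 474 in WT cultures and 317, 326 and 300.3 in KO cultures (-0.85 ± 0.13, adjusted p = 0.0308). Nefh was lower in culture in both genotypes, and the difference between them was no longer past the test in 8 of the 12 fits that left out 1 library (adjusted p up to 0.149).

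**Figure D5:**
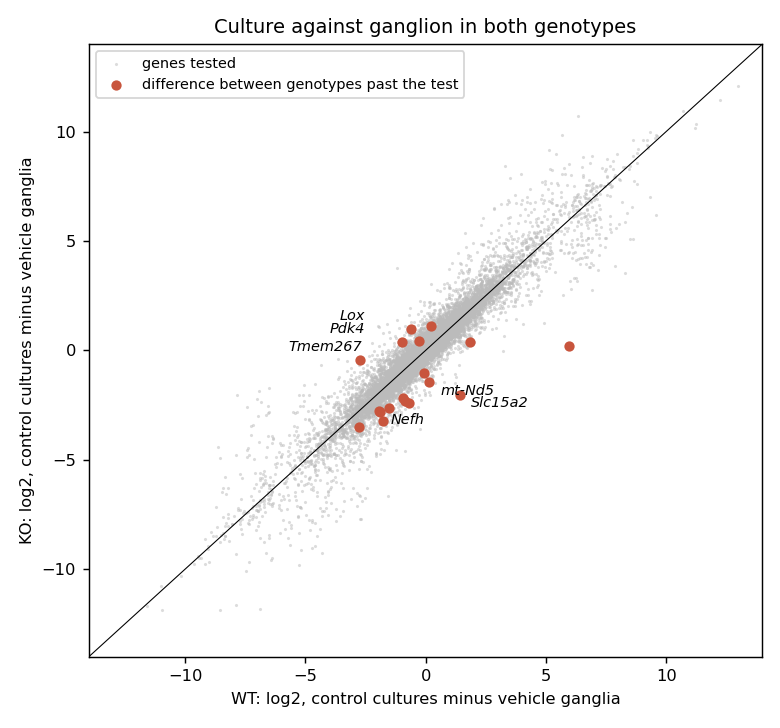
Log2 difference of control cultures minus vehicle ganglia in WT (x axis) and KO (y axis) for each of 18162 genes tested, with the line of equal values; red points are the 18 genes whose difference between genotypes passed the test. Red points lie on both sides of the line, and Slc15a2 lies below it at 1.44 in WT and -2.02 in KO.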

How the data were processed

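Per the labels' protocols, poly-A RNA was made into dUTP strand-marked libraries and sequenced in pairs on DNBSEQ-T7. The authors deposited raw read counts per Ensembl gene, in 3 tables (ganglia, WT cultures, KO cultures), with no normalization. Tools in the submitters' processing notes, without role or order, are TopHat2, Bowtie2 2.2.3 and HISAT2 2.1.0, and the build is GRCm39; which tool counted, its strand setting and the annotation are not stated in the sources used here. Symbols (55141 of 55487 genes), lengths and overlaps came from GENCODE M21, on another build, so only promoter stretches, from a RefSeq table of GRCm38.p6, carry coordinates.

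Genes passing filterByExpr were tested with edgeR 4.0.16 (quasi-likelihood, robust, TMM, two-sided, Benjamini-Hochberg over all genes tested) in R 4.3.3, on the 6 libraries alone, and with 12 libraries for the difference between genotypes. SE is the size of the log2 difference over the square root of F. A fold against a group without counts used a floor of 3 counts over the group, a limit for counting error alone, as PCR copies were not marked by molecular identifiers. Between replicates the chi-square of counts per degree of freedom was 9.06 to 74.4, so no 2 libraries were copies. On simulated counts 77.6% of 67 genes changed 2-fold (17123 tested) and 100% of those changed 4-fold passed the test in the right direction. For the difference between genotypes 31.3% and 98.5% of 67 did (17589 tested). Passing here meant an adjusted p below 0.05 at any size, without the 4-fold limit of a call, so these are not shares of genes called. The changed genes were few and drawn from well-counted ones, and all genes had the same dispersion. These shares therefore do not give the recovery of genes with few counts or of noisier genes in the real libraries.

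The comparison and all gene lists were chosen with earlier results of these data known. Named were Postn, marker genes, the 10 genes with the largest differences each way, and of each list the 5 most abundant and the 3 called members with the largest differences each way. Outside that rule, chosen after their values were seen, are Il31ra, Prdm12, Runx1, Tlx3, Stx1a, Atf3, Gpr151, Sox11, Gap43, Pdgfb, Met, Gfra3, Drp2, Nes, Foxd3, Fn1, Thbs1, Itgav, Itgb3, Itga5, Chac1, Trib3, Vldlr, Vegfa, Npas4, Isg15, Ifit1, Ddx3y, Xist, Ilk, Gnas and those members of lists that are named only to say which were called (such as Syt2, Bnip3 and Higd1b). Alternatives were DESeq2 1.42.0, other scalings, filters and sample sets, a length offset, a replicate block and leaving out each library.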

Additional observations from a re-analysis of the deposited data

Results flagged for a closer look

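The difference between culture and ganglion differed between KO and WT for 18 genes by the test of the difference itself (edgeR over 12 libraries, adjusted p from 0.00144 to 0.0349, log2 of KO less WT given in each case). In KO and WT cultures the genotype and the deposited table coincide, so the cause cannot be told apart, and the part of the table was not tested.

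Mitochondrially encoded genes had a lower culture minus ganglion difference in KO than in WT: mt-Rnr2 at -1.72, mt-Nd5 at -1.6, mt-Nd4 at -1.49, mt-Nd1 at -1.48, mt-Nd2 at -1.23, mt-Cytb at -1.12 and mt-Co1 at -0.965. The neuronal genes Calb1, Nefh and Lgi3 lay on the same side at -0.926, -0.845 and -0.72, as did the peptide transporter Slc15a2 at -3.46, the interferon-stimulated Ifit3b at -1.43 and Gm8210 at -5.75, a gene model that overlaps another gene.

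On the other side were Tmem267 at 2.27, the collagen cross-linking enzyme Lox at 1.56, the pyruvate dehydrogenase kinase Pdk4 at 1.36, the clotting initiator F3 at 0.886 and Rsrp1 at 0.705. Lox had 141, 102 and 107 CPM in WT ganglia, 47.1, 57.8 and 34.2 CPM in KO ganglia, 72.2, 76.9 and 84.3 CPM in WT cultures and 82.8, 85.9 and 105 CPM in KO cultures, so the genotypes stood apart in the ganglia and less so in culture. Pdk4 had 24.2, 22.4 and 17.6 CPM in WT ganglia against 7.35, 7.01 and 8.44 CPM in KO ganglia, and 10 to 11.5 CPM in WT against 9.16 to 10.7 CPM in KO cultures. With any 1 of the cultures left out, neither Lox nor Pdk4 was past the test. Tmem267 had 28.3, 22.7 and 30.4 CPM in WT ganglia against 10.1, 9.59 and 13.9 CPM in KO ganglia, and 4.39, 3.61 and 4.35 CPM in WT against 7.80, 6.12 and 10.6 CPM in KO cultures, so its genotypes stood apart in both, in opposite directions.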

How the results depend on the processing

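Counts of calls depended most on the filter. Genes called higher and lower numbered 1392 and 1693. With at least 10 CPM in 3 libraries they numbered 460 and 719, and without a filter 2545 and 2591. Settings other than the filter also moved them. DESeq2 gave 2078 and 2287, and all 22 libraries in the fit 2051 and 2114. With glmTreat against a log2 of 1, which is another threshold, they numbered 2150 and 2515. Leaving out 1 library gave 1506 to 1765 higher and 1744 to 1946 lower, 36 to 39 and 33 to 38 among the 277 neuronal genes on the neuron scale, and 2 to 6 for the difference between genotypes (main 3), 6 without WT ganglion 1 and 5 without KO ganglion 2; DESeq2 gave 7 and no filter 26. For 13 of the 18 genes past that test, some alternative put the adjusted p above the threshold. Unscaled library sizes moved shared genes by 0.244 and the share of calls that were higher from 45.1 to 53.4%. Postn was 4.53 to 5.79 with 1 library left out, and 4.90 (adjusted p = 0.0561) between KO rPOSTN cultures and KO IMQ ganglia. Of 178 genes checked, 144 kept their side of the threshold in every setting. Signs turned for genes not past the test: Gap43 at 0.11 and Gfra1 at 0.064 with unscaled libraries, Gap43 at 0.14 in the rPOSTN and IMQ libraries, and, without culture 3, Gfra3 at -0.0035 and Npas4 at 0.15 (leaving out 1 library at a time, up to 0.22 for Gfra3 and down to -1.54 for Npas4). Same-numbered libraries did not pair (deviations correlated at 0.079, 0.110 and -0.053 over genes), so a replicate block is given once: 1391 higher, 1703 lower, 38 and 34 on the neuron scale, 5.22 for Postn and 4 for the difference between genotypes. Depth of 17 to 22.3 M counts limits what can be said of genes under about 1 CPM.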

Other observations

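Hox genes, which hold positional identity, and circadian clock genes had few members past 4-fold. Of 25 Hox genes tested, 11 passed the test as lower and 2 as higher, 4 of them called lower and none higher (median -0.32), and 1 of the 4, Hoxd10, was clear of overlap, with 7.21, 2.23 and 6.81 CPM in the ganglia and 0.627, 0.449 and 0.386 CPM in the cultures. Hoxa9, a trunk Hox gene, had 45.1, 38.6 and 38.5 CPM in the ganglia and 22.2, 21.1 and 25.3 CPM in the cultures. Of 17 clock genes 7 passed the test as higher and 6 as lower, and 1 was called in each direction (median -0.08, and 0.16 with unscaled libraries). Arntl (BMAL1), the activator of the clock, had 2.40, 2.52 and 2.31 CPM in the ganglia and 15.7, 17.5 and 17.3 CPM in the cultures (log2 2.80), and Hlf, an output factor, had 17.1, 17.6 and 14.2 CPM against 1.78, 0.949 and 1.16 CPM (-3.64). The times of day at which ganglia and cultures were taken are not stated in the sources used here.

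Hmga2, a chromatin protein of embryonic and dividing cells, was among the genes with the largest differences outside the lists, at a log2 of 7.36. Runx2, a factor of bone and of repair Schwann cells, had 6.75, 7.57 and 6.36 CPM in the ganglia and 26.4, 50.9 and 44.3 CPM in the cultures (log2 2.55), whereas the bone genes Comp and Ibsp were lower at -2.88 and -2.84.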
